A study of Mus musculus with 12 samples.

Results

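Tuft cells were followed in the mouse colon through 8 genes that mark them: Dclk1, Trpm5, Pou2f3, Il25, Gfi1b, Avil, Sh2d6 and Gnat3. The genes were found by symbol, and all 8 were among the 32689 genes of the normalized colon table. The libraries used here are of total RNA from whole colon and whole blood of 6 wild-type C57BL/6 male mice that were 8 weeks old on arrival. The study also sequenced small RNA, which is not used here. Mice 1, 2 and 4 are labelled as ulcerative colitis (UC), a chemical colitis brought on by 1.5% dextran sulfate sodium (DSS) in the drinking water for 7 days, after which regular water was given. Mice 7, 8 and 9 are labelled as healthy controls and drank the same water without DSS. All were killed on day 8, and each gave 1 colon and 1 blood library, so each of the 4 groups holds 3 libraries.

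Tuft cells are rare, bottle-shaped chemosensory cells scattered through the gut epithelium. They use parts of the taste pathway of the tongue: a receptor activates a G protein such as gustducin, phospholipase C releases calcium, and the calcium opens the cation channel TRPM5. In the small intestine, tuft cells that sense parasites or succinate release IL-25, which acts on group 2 innate lymphoid cells, and the IL-13 of those cells makes stem cells give rise to more tuft and goblet cells.

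The colon libraries held a total count of 69181049 to 103662306 and the blood libraries one of 80867247 to 142536804. The deposited labels contradict each other on tissue, since the source name and the tissue characteristic are opposite in every sample. The characteristic was used, and the epithelial gene Epcam had 56259 to 95818 normalized counts in the 6 colon libraries. The disease labels also stand against the inflammatory genes: S100a8, a neutrophil protein, had 5370, 33.1 and 22.3 normalized counts in the colon of mice 1, 2 and 4, labelled UC, and 1888, 75.6 and 13337 in that of mice 7, 8 and 9, labelled control. Lcn2, an antibacterial protein of inflamed epithelium, had 1248, 1208 and 9155 normalized counts in mice 1, 7 and 9 and 96.7 to 117.2 in mice 2, 4 and 8. For this reason every value is given by mouse, and comparisons between the labelled groups concern the labels as deposited.

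Whole tissue was homogenized, so fewer tuft cells and less RNA per tuft cell cannot be told apart in any value given here. The unit of the levels, the normalized count, is the authors' count per gene divided by a scaling factor of each library. It does not allow for gene length, and levels of different genes are compared only after division by the kilobases of exon.

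Trpm5, the calcium-activated channel at the end of the taste cascade (GRCm38, chromosome 7, positions 143069153 to 143094642, minus strand), was highest in the colon of mouse 1. It had 939.6, 217.7 and 299.4 normalized counts in mice 1, 2 and 4 and 615.9, 128.6 and 131.4 in mice 7, 8 and 9. The 2 highest libraries thus carry opposite labels, and the highest exceeded the lowest 7.31-fold. Of its exon bases, 220 lie over exons of Tssc4 on the other strand, and reads there could not be assigned by strand in the counting as described.

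Gnat3, the alpha subunit of gustducin (chromosome 5, positions 17962549 to 18019834, plus strand), followed the same order at its top. Its levels were 158.2, 14.8 and 65.2 normalized counts in mice 1, 2 and 4 and 88.5, 31.5 and 9.90 in mice 7, 8 and 9. With a 16.0-fold span from mouse 1 to mouse 9, it was the most widely spread of the 5 members that had a count in every colon library. Mouse 9, whose S100a8 level was the highest, had the lowest Gnat3, but mouse 1, with the next highest S100a8 (5370), had the highest Gnat3.

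Sh2d6, an SH2-domain adaptor used as a tuft marker (chromosome 6, positions 72513641 to 72521707, minus strand), had 377.9, 68.8 and 108.1 normalized counts in mice 1, 2 and 4. In mice 7, 8 and 9 it had 261.8, 93.3 and 58.5. The order of its 6 libraries was that of Gnat3: mouse 1, then 7, 4, 8, 2 and 9. The profile of Sh2d6 was also the nearest to that of Trpm5, with a root mean square difference of 0.373 between their log2 profiles, each centred on its own mean over the 6 libraries.

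Dclk1, a microtubule-associated kinase and the most used tuft marker (chromosome 3, positions 55242364 to 55539068, plus strand), had another order. Its levels were 1986, 1150 and 955.2 normalized counts in mice 1, 2 and 4 and 2341, 615.1 and 1481 in mice 7, 8 and 9. The 3 highest were those of mice 7, 1 and 9, which are the libraries with high S100a8. Neurons use Dclk1 as well, and 114 of its exon bases lie over exons of genes on the opposite strand.

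Avil, the actin-binding protein advillin (chromosome 10, positions 127000709 to 127020994, plus strand), matched Dclk1. It had 816.5, 273.4 and 315.1 normalized counts in mice 1, 2 and 4 and 978.8, 238.2 and 561.5 in mice 7, 8 and 9. The difference between its profile and that of Dclk1 was 0.279, the smallest between any pair of members. Advillin is also known from peripheral neurons, and 165 of its exon bases lie over exons of Tsfm on the other strand.

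The remaining 3 members had low counts. Pou2f3, the transcription factor without which tuft cells do not form (chromosome 9, positions 43123939 to 43210369, minus strand), had 72.0, 24.4 and 47.0 normalized counts in mice 1, 2 and 4 and 26.6, 22.7 and 0 in mice 7, 8 and 9. It was the only member at 0 in mouse 9, and its nearest member, Gnat3, was 1.28 away.

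Gfi1b, a repressor found in tuft cells and in the platelet and red cell lineages (chromosome 2, positions 28609450 to 28621982, minus strand), had 17.0, 0 and 14.8 normalized counts in mice 1, 2 and 4 and 19.0, 0 and 7.20 in mice 7, 8 and 9. Il25, the cytokine by which tuft cells call on innate lymphoid cells (chromosome 14, positions 54932695 to 54935837, plus strand), had 5.68, 0 and 7.42 in mice 1, 2 and 4 and 7.59, 0 and 2.70 in mice 7, 8 and 9. Both were at 0 in mice 2 and 8, and each was the other's nearest member at 0.576. The authors' counts behind these values were at most 18 for Gfi1b and 9 for Il25, so absence in mice 2 and 8 could not be told from a low level at this depth.

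**Figure D1:**
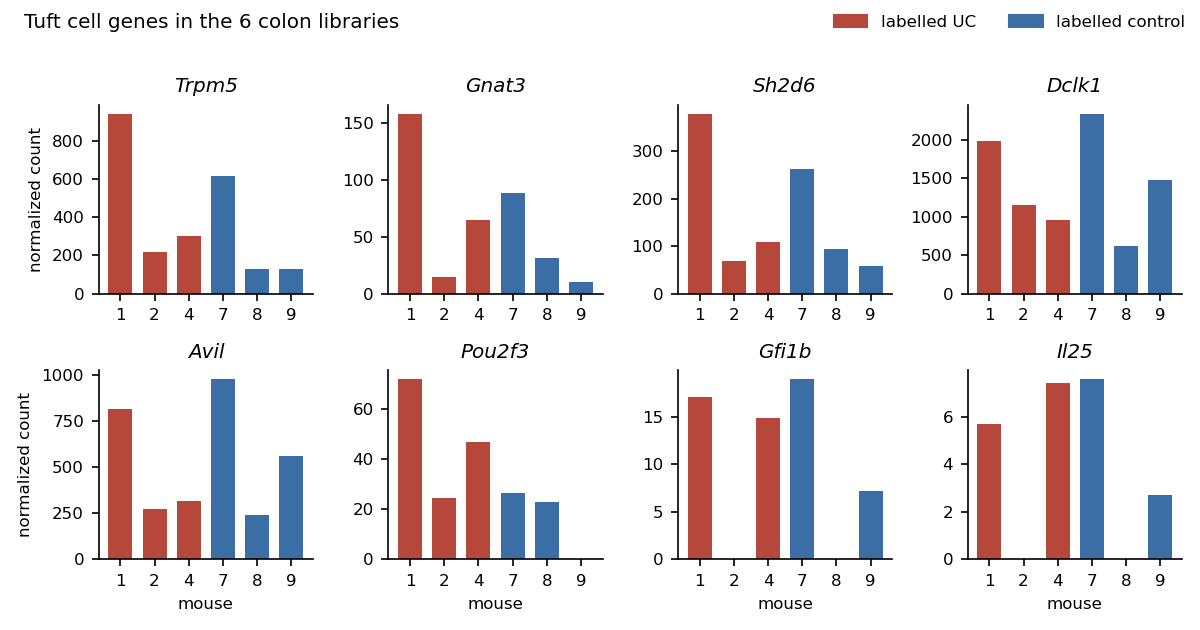
Normalized count of each tuft cell gene (vertical axes, linear, each with its own scale) in the colon library of each mouse (horizontal axis), with 1 bar per library. Trpm5, Gnat3 and Sh2d6 are highest in mice 1 and 7, which carry opposite labels, while Dclk1 and Avil are also raised in mouse 9.

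Across the members, 6 of 8 had mice 1 and 7 as their 2 highest libraries, against 11.6% of the 22182 tested genes of the colon table. The exceptions were Pou2f3 and Il25, in which mouse 4 ranked second. Mouse 1 was highest for 4 members (Trpm5, Pou2f3, Sh2d6 and Gnat3) and mouse 7 for the other 4. Only Dclk1 and Avil had mice 1, 7 and 9 as their 3 highest, a pattern held by 18.2% of those genes. No member was lower in mouse 1 than in mouse 8. For 0 of 8 members did the labelled UC libraries lie apart from the labelled control libraries, while 5.66% of those genes had labelled groups that do not overlap.

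Per kilobase of exon, Avil had the highest mean level over the 6 colon libraries, at 156 ± 91.3 normalized counts per kb (SD, n = 6). The exon length takes in every annotated transcript, whether or not it is used in colon. It was 15296 bases from 15 transcripts for Dclk1 and 3398 from 4 for Avil, so the order of the genes also depends on that length. Sh2d6 (95.5 ± 76.5) and Dclk1 (92.9 ± 42.5) came next, with Sh2d6 above Dclk1 in 4 of the 6 libraries, so their order does not hold across libraries. Trpm5 followed at 60.8 ± 50.7 and Gnat3 at 45.1 ± 41.3, with Trpm5 above Gnat3 in 4 libraries. Gnat3 was above Pou2f3 in all 6 libraries. Pou2f3 (10.4 ± 7.96) was above Gfi1b (5.29 ± 4.64) in 4 libraries and Gfi1b above Il25 (3.66 ± 3.28) in 4, differences within their spread. The channel and the gustducin subunit were thus read at higher levels per kb than the transcription factors and the cytokine.

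The promoters of the 3 members that moved most closely together, Trpm5, Gnat3 and Sh2d6, and that of Avil, which held the most matches, are shown because Pou2f3 belongs to the POU family, whose octamer motif is ATGCAAAT. The windows are up to 250 bases before the RefSeq start (GRCm38.p6), on the strand of the gene, and that of Gnat3 stops at the earlier start of the GENCODE gene. The window of Sh2d6 lies before the RefSeq start but inside the longer GENCODE gene, outside its exons, so it is not upstream of every annotated transcript. Capitals mark 8 bases that match the octamer on either strand with at most 1 mismatch.
Trpm5, chr7:143094643-143094892, minus strand: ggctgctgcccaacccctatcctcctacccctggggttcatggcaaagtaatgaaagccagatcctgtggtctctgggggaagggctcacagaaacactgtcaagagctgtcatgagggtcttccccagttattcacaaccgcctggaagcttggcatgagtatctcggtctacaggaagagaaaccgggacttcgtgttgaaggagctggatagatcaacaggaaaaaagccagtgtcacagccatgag
Gnat3, chr5:17962320-17962548, plus strand: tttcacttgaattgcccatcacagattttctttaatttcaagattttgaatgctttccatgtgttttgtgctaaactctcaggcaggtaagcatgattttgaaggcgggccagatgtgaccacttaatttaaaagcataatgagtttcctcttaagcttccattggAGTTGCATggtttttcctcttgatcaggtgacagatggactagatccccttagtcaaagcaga
Sh2d6, chr6:72520037-72520286, minus strand: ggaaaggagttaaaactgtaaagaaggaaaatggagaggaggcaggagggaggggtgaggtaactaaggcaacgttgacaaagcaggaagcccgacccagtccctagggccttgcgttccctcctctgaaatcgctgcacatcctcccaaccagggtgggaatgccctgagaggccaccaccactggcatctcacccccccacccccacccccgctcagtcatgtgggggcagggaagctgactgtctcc
Avil, chr10:127000459-127000708, plus strand: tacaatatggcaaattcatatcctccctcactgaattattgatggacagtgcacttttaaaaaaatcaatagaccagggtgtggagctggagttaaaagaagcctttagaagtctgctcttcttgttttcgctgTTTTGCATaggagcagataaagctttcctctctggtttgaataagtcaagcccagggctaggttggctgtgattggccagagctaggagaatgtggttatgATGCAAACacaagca
The 6 members with a window had 7 windows, 2 of them of Dclk1. Such a match was held by 3 of the 7, with 2 matches in Avil and 1 each in Gnat3 and Gfi1b, against 16.6% of 32851 windows in all. Counted to the RefSeq start, the matches of Avil began 116 and 15 bases before it and that of Gnat3 began 84 before it, a start that lies past the end of the Gnat3 stretch printed. An exact octamer was in none of the 7 and in 1.60% of all windows. A match of letters is not a binding site, and no window was at hand for Pou2f3 and Il25.

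The comparison of labelled UC with labelled control colon, by the labels as deposited, called none of the 7 members that passed the filter on low counts. A call needed an adjusted p of at most 0.05 and an absolute log2 fold change above 1 in edgeR's quasi-likelihood test. Across all 22238 genes tested, 1 was called, or 0.00450%. At an unadjusted p under 0.05 there were 0 members and 313 genes (1.41%), and DESeq2 and limma-voom called 0 members too. Among all genes, DESeq2 called 6 here. The paper, also with DESeq2 and these thresholds, reports far more genes between its colitis and control colon. The cause of that gap was not tested, and the calls here concern the deposited labels alone.

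Pou2f3 had the largest difference, with 47.8 ± 23.8 normalized counts in the labelled UC and 16.4 ± 14.3 in the labelled control colon (SD, n = 3 each), a log2 fold change of 1.53 with a standard error of 1.20 (edgeR, unadjusted p = 0.245, adjusted p = 0.9999). In limma-voom, the log2 fold change of Pou2f3, which is at 0 in mouse 9, was 3.04. Trpm5 had 485.6 ± 395.3 against 291.9 ± 280.5, a log2 fold change of 0.72 with a standard error of 0.835. Gnat3 stood at 0.85 with a standard error of 1.03, Sh2d6 at 0.40 with 0.825 and Gfi1b at 0.27 with 1.49. Dclk1, at -0.13 with a standard error of 0.512, and Avil, at -0.35 with 0.632, had the other sign. All but that of Pou2f3 are smaller than their standard error, and the adjusted p was 0.9999 for all 7 in the edgeR fit.

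The sign of these differences depended on single mice. Without mouse 1, the log2 fold changes of Trpm5 (-0.19), Gnat3 (-0.13), Sh2d6 (-0.66) and Gfi1b (-0.23) fell below 0. Without mouse 7, those of Trpm5 and Gnat3 were 1.89 and 1.92, and those of Dclk1 (0.38) and Avil (0.23) turned positive. Pou2f3 alone kept its sign whichever mouse was left out. No member was called in any of these fits.

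**Figure D2:**
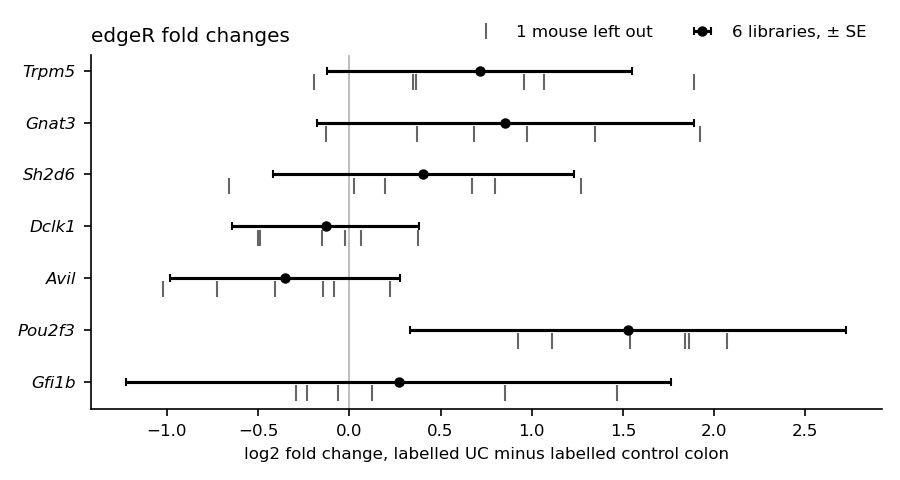
Log2 fold change of the labelled UC over the labelled control colon from edgeR (horizontal axis) for the 7 members tested. Points with bars are the estimate from 6 libraries ± its standard error, and ticks are the estimates with 1 mouse left out, which cross 0 for all but Pou2f3.

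The other genes of the tuft programme were read from lists by role. Of 12 genes of taste signalling, 10 were tested and 0 called, and their median log2 fold change of -0.05 was near the -0.01 of all genes tested. Those with the highest normalized counts, which depend on gene length, were Itpr3, a calcium release channel, Gnb1 and Gnai2, G protein subunits, and Trpm4, a channel related to Trpm5, all of which are used by many cell types. Trpm4 had 23427, 10262 and 13372 normalized counts in mice 1, 2 and 4 and 19567, 16706 and 7583 in mice 7, 8 and 9. Mice 1 and 7 were again its highest libraries and mouse 9 its lowest.

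Rgs13, a brake on G protein signalling that is typical of tuft cells and was picked here after its values were seen, had 366.6, 56.6 and 139.4 normalized counts in mice 1, 2 and 4 and 249.1, 58.0 and 17.1 in mice 7, 8 and 9. The order of its libraries was that of Gnat3 and Sh2d6. Gnb3, a G protein beta subunit of taste cells that was also chosen after its values were seen, had 35.0, 10.5 and 7.42 in mice 1, 2 and 4 and 30.4, 7.56 and 9.90 in mice 7, 8 and 9. Other taste genes had other orders: Plcb2 and Plcg2 were highest in mice 7 and 9, and Tas1r3 in mice 1 and 8. Mice 1 and 7 were the 2 highest libraries for 5 of the 12 taste genes, against 11.6% of genes tested. In the other tuft lists these mice led in 3 of 8 receptors, 1 of 9 enzymes, 2 of 9 transcription factors and 5 of the remaining 26 genes.

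Of 8 tuft cell receptors 6 were tested and 0 called. Il4ra, the receptor chain for IL-4 and IL-13, had 11860, 2010 and 1994 normalized counts in mice 1, 2 and 4 and 16167, 1543 and 18708 in mice 7, 8 and 9, so that it was high where S100a8 was high. Il13ra1, its partner chain, was level, between 11093 and 14363 in the 6 libraries. Cysltr1, a leukotriene receptor, lay between 263.4 and 519.2 and Chrm3, a muscarinic receptor, between 94.5 and 388.2.

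The enzymes of eicosanoid and acetylcholine synthesis comprised 9 genes, all tested and 0 called. Hpgd, which breaks down prostaglandins and is abundant in colonocytes, ranged from 3846 in mouse 9 to 19353 normalized counts in mouse 4. Pla2g4a, which frees arachidonic acid, ranged from 3227 to 5708, and Ptgs1, the constitutive cyclooxygenase of tuft cells, from 1567 in mouse 8 to 3067 in mouse 7. Hpgds, the prostaglandin D synthase, went against the members, being lowest in mice 7, 9 and 1 (631.0, 676.7 and 972.7) and highest in mouse 4 (3092).

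Among 9 transcription factors of tuft or related epithelial cells, 0 were called and 1 had an unadjusted p under 0.05. Sox9, of crypt and tuft cells, was highest in mouse 2 (5189 normalized counts) and between 1311 and 3036 in the others. Gfi1, a secretory lineage factor and relative of Gfi1b, ranged from 229.5 in mouse 9 to 1031 in mouse 7. Sox4 lay between 1615 and 2487 and Runx1 between 1108 and 2327. All of these are also used by other cells of the tissue.

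The remaining 26 tuft genes were all tested, with 0 called, 11 below 0 and a median log2 fold change of 0.05. Those with the highest normalized counts, Krt18 (20394 to 45937 normalized counts), Cd24a (8930 to 17173), Hepacam2 (3982 to 15283) and Bcl2l14 (3531 to 6379), are shared with other epithelial cells. Hepacam2 was highest in mouse 1 and lowest in mouse 9. Bcl2l14 was highest in mouse 4 and lowest in mouse 7.

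The type 2 loop, through which IL-25 acts, was counted in part. Of its 12 genes 10 were in the colon table, 8 were tested and 0 called. All 8 log2 fold changes of labelled UC over labelled control colon were below 0 (51.0% of all genes tested were). Retnlb, the goblet cell product induced by IL-13, had 9118, 0 and 11.5 normalized counts in mice 1, 2 and 4 and 6411, 0 and 4758 in mice 7, 8 and 9. Il33, an alarmin, had 3479, 502.5 and 392.6 in mice 1, 2 and 4 and 4389, 277.3 and 3572 in mice 7, 8 and 9. Il1rl1, its receptor, was between 71.8 and 134.1 in mice 2, 4 and 8 and between 782.4 and 5595 in mice 1, 7 and 9.

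The libraries at 0 for Il25, mice 2 and 8, were also at 0 for Retnlb. Mouse 4, with Il25 at 7.42, had Retnlb at only 11.5, against 4758 to 9118 in mice 1, 7 and 9. Il17ra, a chain of the IL-25 receptor, was level (1753 to 2670), and the other chain, Il17rb, named after its values were seen, was highest in mouse 8 (208.0) and lowest in mouse 9 (34.2). Il4 and Il5, 2 type 2 cytokines also named afterwards, were above 0 in 1 and 2 libraries with at most 5.40 and 3.79 normalized counts, at the edge of detection.

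The genes whose colon profile lay nearest to the mean profile of the 8 members were ranked among 15838 genes with a mean of at least 100 normalized counts. The measure was the root mean square difference between centred log2 profiles over the 6 libraries, whose median over those genes was 1.07. The nearest 10, at 0.301 to 0.414, were Nek10, Ugt1a5, Ifit1bl2, Rab37, Gm15371, Lrp11, Matk, Mfsd6l, Sh2d7 and C2cd4c. Of these, Matk, a kinase, and Sh2d7, an adaptor, were in the tuft lists. Ugt1a5 shares exons with other genes of its cluster, so its counts are uncertain.

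Sh2d7 had 526.6, 115.8 and 158.4 normalized counts in mice 1, 2 and 4 and 283.3, 70.6 and 52.2 in mice 7, 8 and 9. Matk had 300.3, 61.8 and 91.6 in mice 1, 2 and 4 and 260.5, 60.5 and 91.8 in mice 7, 8 and 9. Both were highest in mice 1 and 7, as Trpm5 was. These likenesses rest on 6 libraries that share the same differences in tissue make-up, and many genes lie close: against Trpm5, Gnat3 and Sh2d6 alone, a set chosen after the values were seen, the nearest was Gcnt3, a mucin glycosyltransferase, at 0.259, with Sh2d7 the fifth at 0.288.

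Markers of other cells were read in the same libraries. Epcam, of all epithelial cells, was highest in mouse 8 and lowest in mouse 9, another order than that of the members. Relative to the mean of 10 pan-epithelial genes in the same library, mouse 1 was highest for every member but Il25, which was highest in mouse 4, and mice 1 and 7 were the 2 highest for 5 members.

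Goblet cell genes, of the mucus-making epithelial cells, were mixed. Their summed level had the library order of Gnat3 and Sh2d6, and 4 of 8 genes had mice 1 and 7 on top. Muc2, the main colonic mucin, was at 1019390 and 917317 normalized counts in mice 1 and 7 and at 151064 to 242781 in the others. Fcgbp, another mucus protein, was highest in mouse 4 and lowest in mouse 7, as was Clca1, a goblet cell product named after its values were seen. With a median difference of 0.826 from the mean profile of the members, the goblet list and the 3-gene list of interstitial cells of Cajal (0.827) were the nearest lists, and the median over all genes ranked was 1.07. Enteric glia (0.863) and the list of megakaryocytes and platelets (0.899) came next. The tuft lists lay farther away, at 0.907 for taste signalling, 0.984 for the remaining tuft genes and 1.00 for eicosanoid and acetylcholine synthesis. Tuft receptors lay at 1.01 and tuft transcription factors at 1.12. Member by member, against the mean profile of each list, the order differed. Taste signalling was the nearest list for Trpm5 (0.702) and Sh2d6 (0.580) and had rank 2 for Gnat3 (1.04). For the other members it had rank 5 (Pou2f3 and Il25) or 8 (Dclk1, Gfi1b and Avil).

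Enteroendocrine cells, another rare epithelial type, were mixed as well. Of their 8 genes, 4 had mice 1 and 7 on top and 6 had mice 1, 7 and 9 as the 3 highest. Chga, a granule protein, was at 23444, 3823 and 3935 normalized counts in mice 1, 2 and 4 and at 15467, 3237 and 5924 in mice 7, 8 and 9. Pyy, the gene of the hormone peptide YY, named after its values were seen, had 12834 in mouse 9, 7133 in mouse 1 and 5110 to 6915 in the rest. The part of either cell type in the members' values was not tested.

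For Dclk1 and Avil, whose 3 highest libraries were mice 7, 1 and 9, the nearest list by mean profile was enteric glia for Dclk1 and enteroendocrine cells for Avil. The mean profile of the 6 glial genes was 0.247 from Dclk1 and 0.311 from Avil, and that of the enteroendocrine genes 0.368 and 0.277. Squamous epithelial genes were 0.331 and 0.430 away. Fibroblast genes were 0.390 and 0.523 away and neuronal genes 0.445 and 0.450. Of the tuft lists, receptors were 0.368 and 0.477 away, eicosanoid and acetylcholine synthesis 0.402 and 0.497, and taste signalling 0.441 and 0.506. The remaining tuft genes were 0.391 and 0.503 away and the transcription factors 0.801 and 0.963.

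Among the glial genes, 4 of 6 had mice 1, 7 and 9 as their 3 highest. All 11 genes of the enteric neuron list had mice 1, 7 and 9 as their 3 highest libraries, and their summed level was 4376 to 8016 normalized counts in mice 2, 4 and 8 and 16982 to 30164 in mice 1, 7 and 9. Vip, a neuropeptide, had 4306, 2026 and 2115 normalized counts in mice 1, 2 and 4 and 3471, 929.0 and 12668 in mice 7, 8 and 9. Nos1, of inhibitory motor neurons, had 3096, 1213 and 918.9 in mice 1, 2 and 4 and 3287, 734.9 and 3727 in mice 7, 8 and 9. The part of neurons, glia, squamous cells or fibroblasts in the counts of Dclk1 and Avil was not tested.

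Genes that differ along the length of the gut also differed between the libraries. The stretch of colon taken from each mouse is not given in the sources used here. Of 5 such genes, listed after their values were seen, Hoxb6 had 3236 and 2723 normalized counts in mice 1 and 7 and 63.9 to 124.8 in the other 4 libraries. Hoxb13, a gene of the most distal colon, had 2471 and 2897 in mice 1 and 7 and 13692 to 30119 in the others, and Cdx2 had 12701 and 11069 against 1216 to 3808. Hoxa13 was also lowest in mice 1 and 7. Hoxd13 had 619.4 in mouse 1, 1296 in mouse 7 and 1472 in mouse 9, against 7619 to 9399 in mice 2, 4 and 8. Cdx2 had 3808 in mouse 9 and 1216 to 1411 in mice 2, 4 and 8. Mice 1 and 7, which lead in 6 of 8 members, thus stood apart from mouse 9 in Hoxb6, Hoxb13, Hoxa13 and Cdx2 but not in Hoxd13. All 3 mice had high S100a8. The part of position along the gut in the tuft cell values was not tested.

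Platelet genes, relevant to Gfi1b, had summed levels of 2250, 573.9 and 1043 normalized counts in mice 1, 2 and 4 and 1172, 802.9 and 988.9 in mice 7, 8 and 9. The high sum of mouse 1 rests on Gp1bb, at 1293 there and 38.3 to 232.7 in the others, while Pf4, the platelet chemokine, lay between 394.5 and 596.6 in all 6. By mean profile the platelet list was the nearest list for Gnat3 (0.942) and Il25 (0.956). It had rank 2 for Trpm5 and Sh2d6, rank 3 for Gfi1b, and ranks of 8 to 11 for Pou2f3, Avil and Dclk1. The red cell list was at 511.1 in mouse 9 and 1545 to 4018 elsewhere. Of the mast cell genes, Hdc, which makes histamine, had 727.4, 34.0 and 14.8 in mice 1, 2 and 4 and 561.5, 26.5 and 2415 in mice 7, 8 and 9, whereas Kit, which interstitial cells of Cajal share, was highest in mouse 1 (5939) and lowest in mouse 9 (1630). The part of these cells in the members' counts was not tested.

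**Figure D3:**
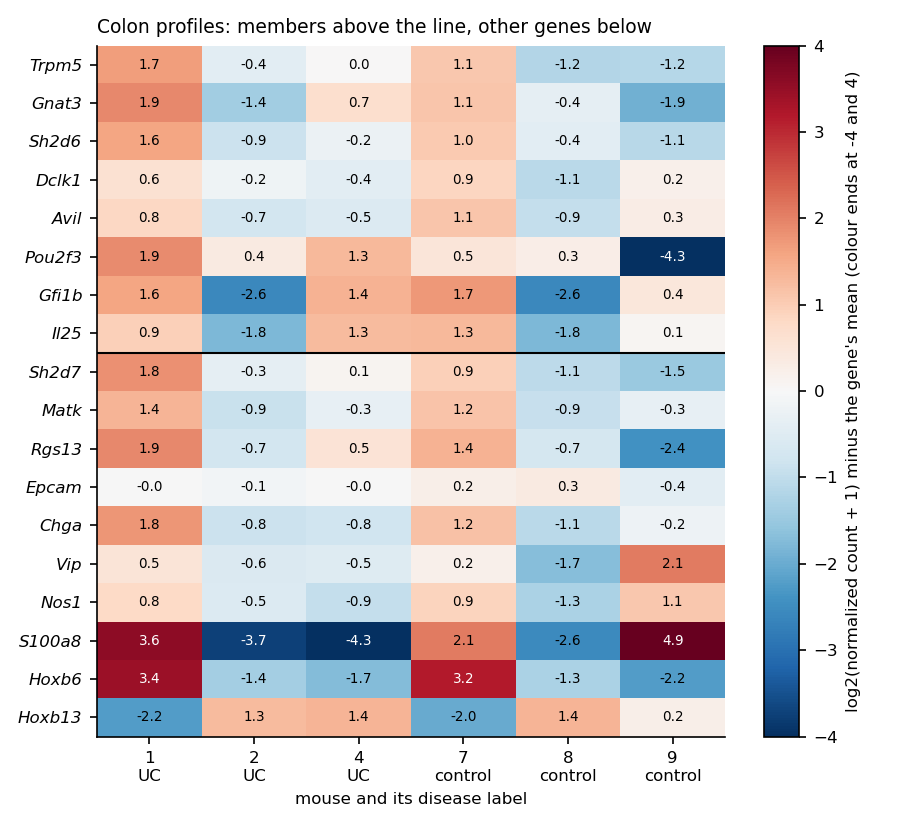
Centred log2(normalized count + 1) of the 8 members (above the line) and of 10 other genes (below) in the colon library of each mouse, with 0 as the mean of a gene over the 6 libraries. Sh2d7 and Matk, picked for their nearness to the members, and Rgs13, picked after its values were seen, share the high values of mice 1 and 7 with most members. Epcam is level, and Chga is highest in mice 1 and 7. Vip, Nos1 and S100a8 are highest in mice 1, 7 and 9, and Hoxb6 and Hoxb13 split mice 1 and 7 from the rest.

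The blood libraries show which members could also be read from blood cells. Between the colon and blood of all 12 libraries, 7 members were tested: 6 were called higher in colon, where 37.7% of 23258 genes were, and 1 was called higher in blood, where 20.8% were. The median log2 fold change of all those genes was 0.46, and the values of the members are given without subtracting that shift. Levels in both tissues are given as CPM, counts scaled to one library total with no TMM factor.

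Gfi1b was the member higher in blood, at 1.16 ± 0.279 CPM (SD, n = 6) against 0.113 ± 0.0968 in colon, a log2 fold change of -5.48 with a standard error of 0.845 (edgeR with TMM factors, adjusted p = 1.535e-04), or -3.35 with library size alone. Its normalized counts in blood were 117.9, 159.5 and 179.2 in mice 1, 2 and 4 and 113.3, 156.3 and 86.1 in mice 7, 8 and 9, and no colon library reached the CPM of any blood library. The share of the colon's few Gfi1b counts that came from blood cells was not tested.

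Avil was counted in all 6 blood libraries but at 0.330 ± 0.159 CPM against 6.21 ± 3.55 in colon, a log2 fold change of 2.15 with a standard error of 0.435 (edgeR, adjusted p = 0.00103), or 4.28 with library size alone. Trpm5 was at 0 in the blood of 4 mice and at 22.6 (mouse 2) and 1.65 (mouse 9) normalized counts in the others, and rose by 5.81 on the log2 scale from blood to colon with a standard error of 1.16 (edgeR, adjusted p = 9.591e-04). Without mouse 2 the difference of Trpm5 was 9.42. Gnat3 was counted in the blood of mouse 9 alone, at 4.96 normalized counts, and was higher in colon by 5.82 with a standard error of 1.43 (edgeR, adjusted p = 0.00517), or by 8.51 without mouse 9.

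Dclk1 had 2.30 normalized counts in the blood of mouse 7 and 0 in the rest, against 16.7 ± 7.48 CPM in colon (edgeR, adjusted p = 3.466e-06). Sh2d6 and Pou2f3 were at 0 in all 6 blood libraries and were called higher in colon (edgeR with TMM factors, adjusted p = 2.974e-04 and 0.00709). With a floor of 3 counts per library they were, on the CPM scale, at least 70.7-fold and 14.1-fold higher in colon. These folds hold for that scale only. With library size alone the median log2 fold change of all genes was 2.57, against 0.46 with TMM factors. Il25 was at 0 in blood as well but too low in colon to pass the filter. Dclk1, Trpm5, Sh2d6, Avil and Gnat3 were above every blood library in all 6 colon libraries, Pou2f3 in 5 and Il25 in 4.

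**Figure D4:**
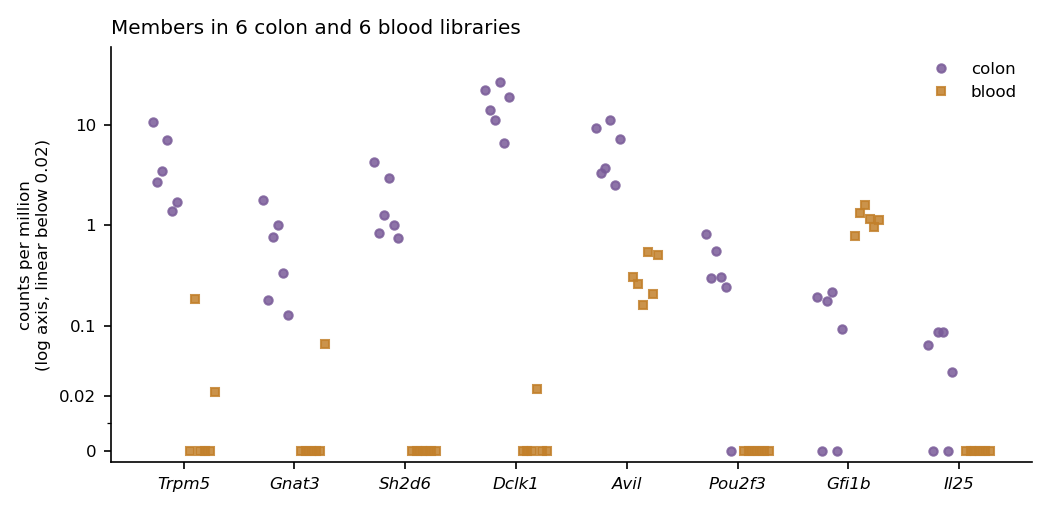
CPM, counts scaled to one library total (vertical axis, logarithmic above 0.02 and linear below) of each member in the 6 colon libraries (circles) and 6 blood libraries (squares), 1 point per library. Gfi1b is the one member with all blood libraries above all colon libraries, and Sh2d6, Pou2f3 and Il25 are at 0 in blood.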

How the data were processed

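Total RNA of colon (after ribosomal RNA removal) and whole blood (after globin and ribosomal RNA removal) was sequenced in 12 libraries. The authors aligned reads with STAR to GRCm38, estimated counts per gene with StringTie 1.3.4c and its count script, and deposited these counts, which are not a tally of reads, so that no counting interval is given. The deposited normalized colon and blood tables hold the authors' signal per gene, each count divided by 1 DESeq2 size factor per library. Their 6 colon columns run in the order mouse 1, 7, 9, 2, 4, 8.

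Groups came from the disease and tissue characteristics. Counts were tested with edgeR 4.0.16 (quasi-likelihood, TMM factors, its filter on low counts, Benjamini-Hochberg over all genes tested) in R 4.3.3, on the 6 colon libraries for UC against control and on all 12 for colon against blood. The functions were tested on simulated data. RLE factors, library size only, no filter, DESeq2 1.42.0, limma-voom (limma 3.58.1), all 12 libraries, each mouse left out and a replicate block were the alternatives. Colon and blood of 1 mouse pair by the study's design, and the correlation of their deviations from the group means over 23258 genes was -0.0151 to 0.141. Values between different mice are not given beside it, so this range does not test the pairing.

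Named are the 8 members, up to 4 genes of highest mean in each tuft list, genes of other lists, the 10 genes of nearest profile (pseudocount 1), S100a8, Lcn2 and Epcam. The 23 lists hold 191 genes, of which 188 were in the colon table. Members and lists were chosen with earlier results of these data known. Gene positions and exon lengths came from GENCODE (GRCm38) and promoters from RefSeq. The p-values measure the spread between 3 mice a group.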

Additional observations from a re-analysis of the deposited data

How the results depend on the processing

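Under all 12 alternatives with a test, 0 members were called between labelled UC and labelled control colon and 7 between colon and blood, of 7 tested, or of 8 with no filter on low counts. The replicate block (paired by mouse) also called 7 and changed no call. RLE factors left the median shift between tissues at 0.52 and library size alone moved it to 2.57, with 8759 genes called higher and 4845 lower in colon by TMM, 8981 and 4647 by RLE, and 17887 and 1757 by library size, while no member changed direction. With each mouse left out in turn, the log2 fold change of UC over control colon lay at -0.50 to 0.38 for Dclk1, -0.19 to 1.89 for Trpm5, -0.29 to 1.47 for Gfi1b, -1.02 to 0.23 for Avil, -0.66 to 1.27 for Sh2d6, -0.13 to 1.92 for Gnat3 and, without a change of sign, 0.93 to 2.07 for Pou2f3, whose value in limma-voom was 3.04. Mouse 1 against mouse 8 alone, a value with no test, gave 1.69 for Dclk1 and 1.78 for Avil, both of the opposite sign to the fit of 6 libraries, and 2.87 for Trpm5 and 2.02 for Sh2d6. In CPM with TMM factors, 7 members kept the order of their libraries and 8 their highest library, and relative to the epithelium 4 did. Of the 10 genes of nearest profile, 8 were shared without Dclk1, 4 with a pseudocount of 5 and 2 with the profile of Trpm5, Gnat3 and Sh2d6. The cause of these changes was not tested. With 3 libraries a group, labels that the inflammatory genes do not follow, and counts of at most 18 for Gfi1b and 9 for Il25, differences in the rarest members could not be detected at this depth.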
